A study of Mus musculus with 69 samples.

Results

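Expression of 10 genes of the G1 control of the cell cycle was read in 69 single cells of the embryonic mouse cortex. The genes were taken as a named list, out of 18194 genes measured, and comprise the D-type cyclins Ccnd1, Ccnd2 and Ccnd3, the kinases Cdk4, Cdk6 and Cdk2, and the inhibitors Cdkn1b, Cdkn1c, Cdkn2c and Cdkn2d. All 10 had a probe set of their own. The cells came from the dorso-lateral cerebral wall of CD1 mice at embryonic day 14, and each was picked by hand at random, amplified and, where its cDNA passed a quality check, put on an array of its own. By source label, 3 cells came from the cortical plate (CP), which collects young neurons beneath the brain surface, and 66 from the germinal layers along the ventricle (ventricular and subventricular zone, VZ/SVZ), which hold the dividing progenitors. The description field puts the 3 CP cells in the VZ/SVZ, and the source label was followed here. The labels give no treatment or genotype, and they tie no cell to an animal or litter, so that each group counts as 1 sample.

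In G1, a D-type cyclin joins Cdk4 or Cdk6, and the complex phosphorylates the retinoblastoma protein and its relatives, which frees E2F transcription factors. Cyclin E with Cdk2 then carries the cell into S phase. Inhibitors of the INK4 family, such as p18 (Cdkn2c) and p19 (Cdkn2d), bind Cdk4 and Cdk6, while those of the Cip/Kip family, p27 (Cdkn1b) and p57 (Cdkn1c), bind cyclin-CDK complexes and act mainly on Cdk2. In the developing cortex, apical progenitors of the VZ give rise to intermediate progenitors, which express Eomes (Tbr2), and to neurons, which leave the cycle and express Tubb3 (class III beta-tubulin).

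Cells of the VZ/SVZ were classed by 2 genes outside the list, using a signal of 50 as the cut. Mki67 was used as a marker of cycling cells and Tubb3 as one of neurons, although 25 cells had both. There were 10 cells with Tubb3 and without Mki67 (Tubb3-only cells), 25 with both, 30 with Mki67 and without Tubb3 (Mki67-only cells), and 1 with neither. Few cells lay near the cut. Mki67 had no cell between 25 and 100, with 12.5 the highest signal below the cut and 490 the lowest above it, while Tubb3 had 1 such cell and Eomes 2. Eomes was above 50 in 17 of the 25 cells with Mki67 and Tubb3, in 10 of the 30 Mki67-only cells and in 0 of the 10 Tubb3-only cells. The 3 CP cells carried Tubb3 signals of 2543, 2064 and 3001 and Mki67 signals below 4.

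Cells are not replicates, so no test was made. A mean is the mean log2 signal of a class with values under 50 set to 50, its SD is the spread between cells, and a difference of at least 1 between class means is the rule of size used for counts. Shares of cells above 50 carry exact Clopper-Pearson 95% intervals, which cover counting error only. The number of genes with signal above 50 differed between classes, with medians of 3988 in CP cells, 4222 in Tubb3-only cells, 4754 in cells with both genes and 4978 in Mki67-only cells. The spiked bacterial thr RNA, added at 5 copies per cell, was above 50 in 0 of 3 CP cells (interval to 70.8%), 2 of 10 Tubb3-only cells, 10 of 25 cells with both genes and 15 of 30 Mki67-only cells. No gene of the interneuron, Cajal-Retzius, endothelial, microglia, erythroid or pericyte and meningeal lists was above 50 in any CP or Tubb3-only cell. A pericyte and meningeal marker (Col1a2, Pdgfrb or Dcn) was above 50 in 6 of the 30 Mki67-only cells, at 163 to 692, and in 1 cell with both genes. Reln, of the Cajal-Retzius list, was above 50 in 3 cells with both genes and in the cell with neither, and interneuron markers in 1 cell with both genes. All 7 neuronal markers were above 50 in some CP cell and in some Tubb3-only cell. Of the 6 intermediate progenitor markers, 2 were above 50 in some CP cell and 5 in some Tubb3-only cell. Of the 8 apical progenitor markers the counts were 3 and 4. The intermediate progenitor markers had a median summed signal of 1767 in Tubb3-only and 2185 in Mki67-only cells. For the apical markers these medians were 191 and 16892.

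The upstream sequences of Cdkn2c and Cdk4 are shown because Cdkn2c was lower in Tubb3-only than in Mki67-only cells, whereas Cdk4 was not. Each is the 250 bases before the outer start of the gene in the RefSeq table for GRCm38.p6, written 5′ to 3′ on the gene's own strand. The windows are chr10:127063285-127063534 (plus strand) for Cdk4 and chr4:109666757-109667006 (minus strand, the upstream one of 2 starts) for Cdkn2c. Both windows lie outside the annotated genes, which are chr10:127063535-127067288 and chr4:109660876-109666756. Capitals mark 4 motifs, each searched on both strands. They are the E-box CACGTG, which is its own reverse complement, the GC box with the letters GGGCGG, the CCAAT box, and an E2F-like motif spelled GCGGGAA. In these windows no match of one motif overlapped a match of another.
Cdk4: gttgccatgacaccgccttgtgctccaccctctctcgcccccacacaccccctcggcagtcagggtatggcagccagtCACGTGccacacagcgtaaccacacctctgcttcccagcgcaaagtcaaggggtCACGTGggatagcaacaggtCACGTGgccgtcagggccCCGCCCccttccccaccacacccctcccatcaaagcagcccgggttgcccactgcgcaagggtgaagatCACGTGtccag
Cdkn2c: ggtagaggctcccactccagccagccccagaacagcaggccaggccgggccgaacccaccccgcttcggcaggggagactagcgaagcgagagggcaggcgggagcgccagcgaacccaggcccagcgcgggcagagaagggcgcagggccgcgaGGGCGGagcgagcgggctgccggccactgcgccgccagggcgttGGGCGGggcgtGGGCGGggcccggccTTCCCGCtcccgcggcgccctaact
The Cdk4 window held 4 E-boxes and 1 GC box. The Cdkn2c window held 3 GC boxes and 1 E2F-like motif. The CCAAT box was in neither window. Of the 32851 windows of the RefSeq table, 6.02% held the E-box, 32.7% the GC box, 33.8% the CCAAT box and 3.82% the E2F-like motif. A match of letters describes the window and does not show binding. The table also has windows of Ccnd3, Cdk2, Cdk6, Cdkn1b and Cdkn2d, while Ccnd1, Ccnd2 and Cdkn1c are only named here. Among those windows and the other Cdkn2c window, the E2F-like motif was only in that of Cdk2, with 2 matches. By the rule of size, Cdk6, Cdkn2d and Ccnd3 were lower in Tubb3-only than in Mki67-only cells, and Cdk2 and Cdkn1b stayed under it. Whether the motif bears on these values was not tested. The E-box was also in the Cdk6 window, with 1 match, and in none of the others.

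Tubb3-only cells of the germinal layers had less signal of the D-type cyclins, Cdk6 and both INK4 inhibitors than Mki67-only cells, and more of Cdkn1c. By the rule of size 6 of the 10 genes were lower and 1 was higher. Over all genes 8.59% were lower by that size and 5.58% higher. Among the 7618 genes above 50 in at least 20% of VZ/SVZ cells, 20.4% were lower and 11.2% higher; 9 of the 10 genes belong to that set, Cdkn1c being the exception. The median difference was -2.09 over the 10 genes and -0.23 over those 7618 genes. For the 7 genes past the rule the intervals for the share of cells above 50 did not overlap. How often this holds over all genes was not counted. Shares and means rest on the same signals, so the gap between the intervals is no separate support.

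**Figure D1:**
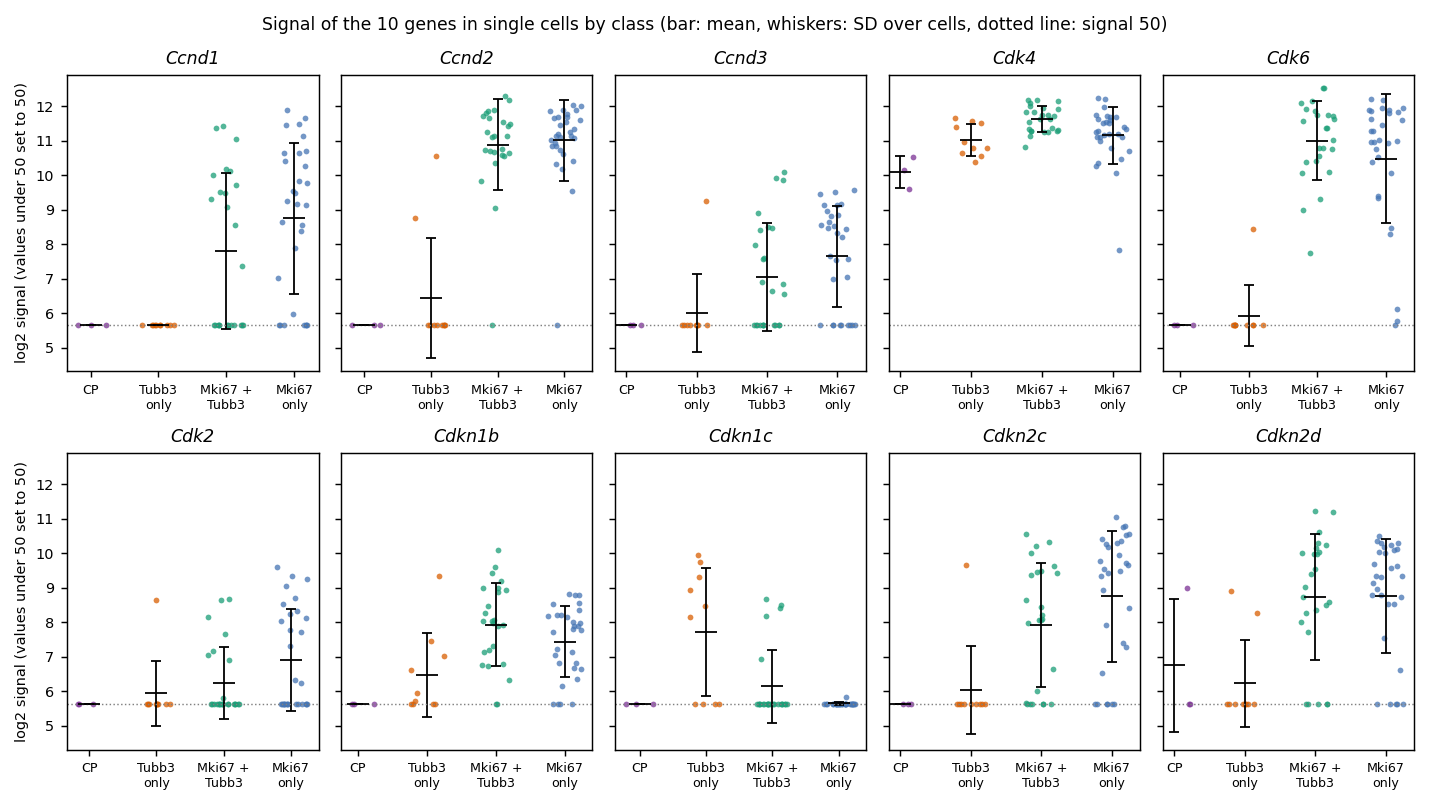
Log2 signal (vertical axis, values under 50 set to 50) of each gene in each cell, in CP cells, Tubb3-only cells, cells with Mki67 and Tubb3, and Mki67-only cells of the VZ/SVZ. Points are cells, bars are means and whiskers SD over cells; the points of Cdk4 stay above the dotted line at a signal of 50 in all classes, while Cdkn1c has 6 of its points above that line in the Tubb3-only class and 1 in the Mki67-only class.

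Ccnd1, a D-type cyclin that responds to growth factors, was at or below 50 in all 10 Tubb3-only cells, with a lowest signal of 3.06, a median of 12.9 and a highest of 39.5. In the 30 Mki67-only cells the lowest was 8.71, the median 596 and the highest 3825, and 23 were above 50. The share was thus 0 of 10 (interval to 30.8%) against 23 of 30 (57.7% to 90.1%), and the geometric mean was at least 8.61-fold lower in Tubb3-only cells. The classes overlapped through the 7 Mki67-only cells at or below 50.

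Ccnd2 is a D-type cyclin with a known role in cortical progenitors. In Tubb3-only cells it had a lowest signal of 0.621, a median of 7.97 and a highest of 1502. In Mki67-only cells it had a lowest of 22.95, a median of 2303 and a highest of 4213. It was above 50 in 2 of 10 Tubb3-only cells (interval 2.52% to 55.6%) and in 29 of 30 Mki67-only cells (82.8% to 99.9%). The means were 6.45 ± 1.74 and 11.01 ± 1.18 (SD), a difference of -4.57. The 2 Tubb3-only cells above 50 had 432 and 1502, so the classes met at the top of one and the bottom of the other.

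Ccnd3 was above 50 in 1 of 10 Tubb3-only cells (0.253% to 44.5%), at 609, and in 21 of 30 Mki67-only cells (50.6% to 85.3%), where the highest was 756. The difference was -1.64. Within the cells whose title carries the letter X it was -0.48, with 1 of 3 Tubb3-only and 13 of 20 Mki67-only cells above 50, and the mean over all 3 Ccnd3 probe sets gave -0.55. Ccnd3 thus fell short of the rule under both settings, but with the mean of probe sets this was fixed in advance. Both extra probe sets were at or below 50 in all cells and only shrink the difference.

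Of the kinases, Cdk4 was above 50 in all 10 Tubb3-only cells (69.2% to 100%) and in all 30 Mki67-only cells (88.4% to 100%). Its signal ran from 1334 through a median of 1884 to 3228 in Tubb3-only cells and from 230 through 2448 to 4811 in Mki67-only cells. The means were 11.03 ± 0.47 and 11.15 ± 0.82 (SD), a difference of -0.13 that was smaller than either SD, and the Tubb3-only cells lay within the range of the Mki67-only cells. With the cells brought to the same trimmed mean the difference was 0.05.

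Cdk6, the other partner of the D-type cyclins, was above 50 in 1 of 10 Tubb3-only cells (0.253% to 44.5%) and in 29 of 30 Mki67-only cells (82.8% to 99.9%). In Tubb3-only cells the lowest signal was 0.274, the median 0.930 and the highest 346, while in Mki67-only cells the lowest was 11.7, the median 2065 and the highest 4729.96. The means were 5.92 ± 0.88 and 10.48 ± 1.87 (SD), and the difference was -4.56. In 9 of the 10 Tubb3-only cells Cdk4 was thus above 50 and Cdk6 was not, a pattern seen in 1 of the 30 Mki67-only cells.

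Cdk2, the partner of cyclins E and A, was above 50 in 1 of 10 Tubb3-only cells (0.253% to 44.5%), at 401, and in 15 of 30 Mki67-only cells (31.3% to 68.7%), where the highest was 781. The difference of -0.97 stayed under the rule, and the intervals overlapped. Only 25 of the 66 VZ/SVZ cells had Cdk2 above 50.

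Among the Cip/Kip inhibitors, Cdkn1b (p27) was above 50 in 6 of 10 Tubb3-only cells (26.2% to 87.8%) and in 26 of 30 Mki67-only cells (69.3% to 96.2%). Its signal had a lowest value of 10.3, a median of 57.3 and a highest of 656 in Tubb3-only cells, and a lowest of 9.97, a median of 221 and a highest of 452 in Mki67-only cells. The highest single signal of these classes was thus in a Tubb3-only cell, although the mean was lower there by 0.97, at 6.47 ± 1.21 against 7.44 ± 1.03 (SD). That difference did not pass the rule.

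Cdkn1c (p57), an imprinted inhibitor of the same family, was the 1 gene higher in Tubb3-only cells. It was above 50 in 6 of 10 Tubb3-only cells (26.2% to 87.8%) and in 1 of 30 Mki67-only cells (0.0844% to 17.2%). The 6 Tubb3-only signals were 998, 869, 640, 492.9, 356 and 288, and the 1 Mki67-only signal was 57.6, close to the cut. The other 4 Tubb3-only cells were between 0.542 and 6.05, so the class itself held cells on both sides of the cut. A signal at or below 50 does not show that the transcript was absent. The thr RNA, added at 5 copies per cell, was above 50 in 2 of the 10 Tubb3-only cells. The means of Cdkn1c were 7.72 ± 1.86 and 5.65 ± 0.04 (SD), a difference of 2.07.

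Both INK4 inhibitors were lower in Tubb3-only cells. Cdkn2c (p18) was above 50 in 1 of 10 Tubb3-only cells (0.253% to 44.5%), at 817, and in 24 of 30 Mki67-only cells (61.4% to 92.3%), whose median was 739 and highest 2115. The means were 6.05 ± 1.27 and 8.75 ± 1.91 (SD), a difference of -2.71. Cdkn2d (p19) was above 50 in 2 of 10 Tubb3-only cells (2.52% to 55.6%), at 481 and 308, and in 25 of 30 Mki67-only cells (65.3% to 94.4%), whose median was 640.4 and highest 1450.4. The difference was -2.53. For both genes the Tubb3-only cells above 50 lay inside the Mki67-only range.

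**Figure D2:**
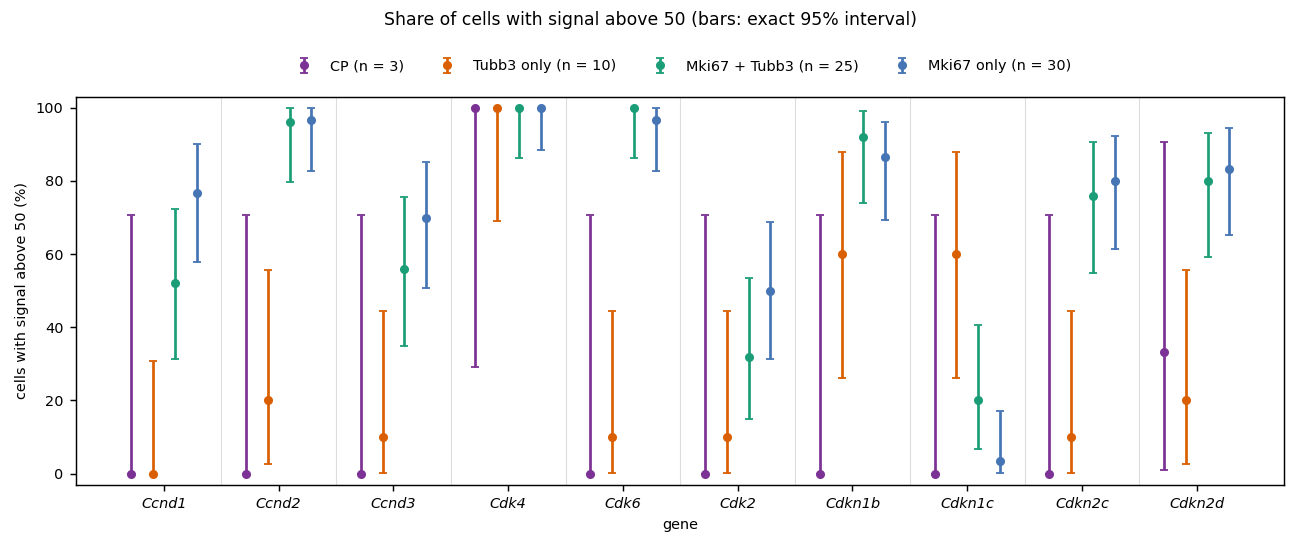
Share of cells with signal above 50 (vertical axis, percent) for each gene in CP cells, Tubb3-only cells, cells with Mki67 and Tubb3, and Mki67-only cells; points are shares and bars exact 95% intervals. The Tubb3-only and Mki67-only intervals are apart for 7 genes and overlap for Cdk4, Cdk2 and Cdkn1b, and the intervals of the 3 CP cells are wide. How often intervals are apart over all genes was not counted.

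Class and title letter ran together. Of the 10 Tubb3-only cells, 7 carried the letter D in their title and 3 the letter X, and no Mki67-only cell carried the letter D. What the letter stands for is not stated. Within the letter X, with 3 Tubb3-only and 20 Mki67-only cells, the differences were -3.31 for Ccnd1, -3.65 for Ccnd2, -3.73 for Cdk6, -1.41 for Cdkn2c, -2.90 for Cdkn2d and 2.46 for Cdkn1c, so these 6 genes kept the sign and stayed past the rule. Cdk2 reached -1.23 there. Among the cells at or below the median number of genes above 50 (8 Tubb3-only, 11 Mki67-only), the same 6 genes had differences of -2.26, -4.10, -4.15, -2.22, -2.22 and 1.72, in that order. Without the cells with an interneuron or pericyte and meningeal marker above 50, which left 24 Mki67-only cells, 7 genes were lower and 1 higher, the added one being Cdk2 (-1.06).

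Of 28 other genes of the G1/S transition, 8 were lower and 1 was higher in Tubb3-only than in Mki67-only cells, with a median difference of -0.32. Ccna2, the S-phase cyclin A, was above 50 in 0 of 10 Tubb3-only cells (interval to 30.8%) and in 29 of 30 Mki67-only cells, at least 47.3-fold lower. Rbl1 (p107), a relative of the retinoblastoma protein, was above 50 in 0 of 10 against 28 of 30, at least 12.1-fold lower. Cks1b, which helps the ubiquitin ligase that degrades p27, differed by -4.01, Skp2, a subunit of that ligase, by -2.49, and E2f5, a repressive E2F, by -3.13. Of 13 proliferation genes, all 13 were lower, with a median of -4.16. That list contains Mki67, which defined the classes. Its other genes also mark proliferation, so their direction is not independent of the classing.

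Cells with both Mki67 and Tubb3 still had Ccnd2, Cdk6 and the INK4 inhibitors. Set against Mki67-only cells, 0 of the 10 genes passed the rule in either direction, where 1.57% of all genes (3.73% of the 7618 more widely seen ones) were lower and 1.45% (3.39%) higher. The largest differences were -0.95 for Ccnd1, -0.82 for Cdkn2c and -0.67 for Cdk2, and the others lay between -0.59 and 0.52. Ccnd1 was above 50 in 13 of the 25 cells with both genes (31.3% to 72.2%), against 23 of 30 Mki67-only cells. Ccnd2 was above 50 in 24 of 25 and Cdk6 in 25 of 25.

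Set against the cells with both genes, Tubb3-only cells were lower by the rule in 7 genes and higher in Cdkn1c, where 7.33% of all genes (17.4% of the 7618) were lower and 4.6% (8.79%) higher. Cdk6 differed by -5.08 and Ccnd2 by -4.44, Cdkn2d by -2.49, Ccnd1 by -2.15, Cdkn2c by -1.88, Cdkn1b by -1.46 and Ccnd3 by -1.05. Cdkn1b joined the lower genes here: it had a mean of 6.47 ± 1.21 in Tubb3-only cells against 7.94 ± 1.20 in cells with both genes (SD). The 1 cell with neither Mki67 nor Tubb3 had an Eomes signal of 1403, with Ccnd2 at 3423, Cdk6 at 499, Cdk2 at 553 and Cdkn2d at 1061, and Ccnd1 at 16.1.

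**Figure D3:**
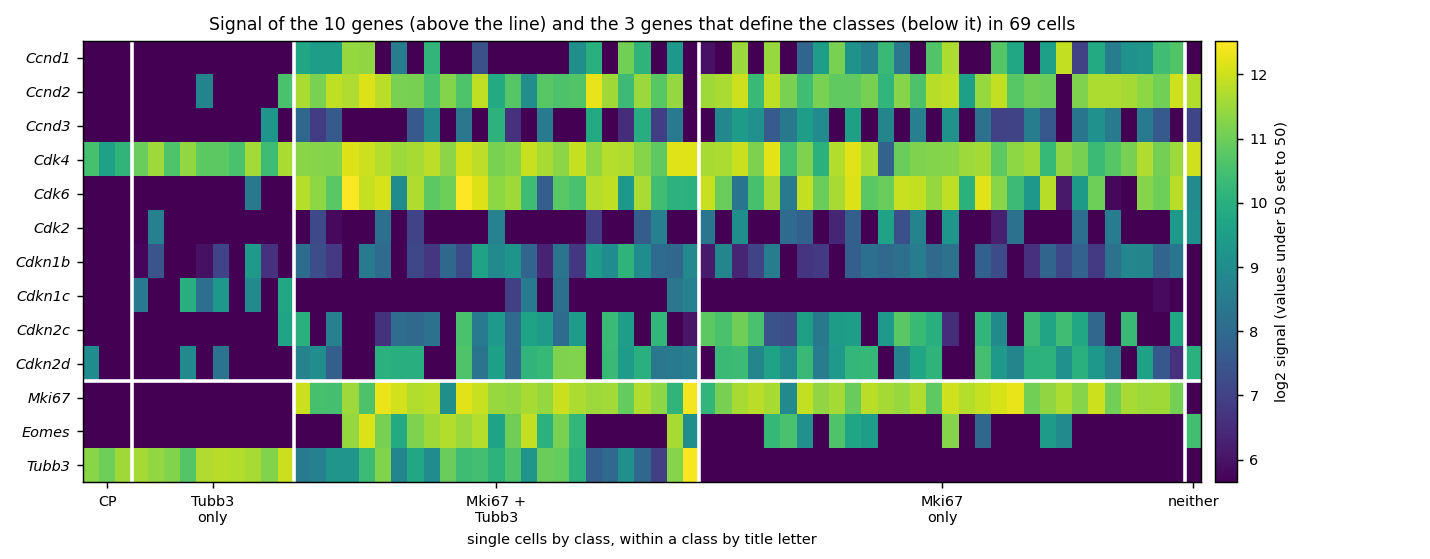
Log2 signal (colour, values under 50 set to 50) of the 10 genes and of Mki67, Eomes and Tubb3 (rows) in the 69 cells (columns), ordered by class and within a class by title letter; colours are to be read along a row, since levels of different probe sets are not comparable. Cdk4 is bright in all columns, and Ccnd2 and Cdk6 are dark in the 3 CP cells and in most of the 10 Tubb3-only cells.

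Among the 55 VZ/SVZ cells with Mki67 above 50, Eomes was above 50 in 27 and not in 28. None of the 10 genes passed the rule between these groups, where 2.41% of all genes (5.67% of the 7618) were lower and 1.52% (3.56%) higher. Differences ran from -0.63 for Ccnd2 to 0.51 for Cdk4. Cdk4 had a median of 3291 in cells with Eomes and 2450 in cells without. Ccnd2 was above 50 in 25 of 27 cells with Eomes (75.7% to 99.1%) and in 28 of 28 without (87.7% to 100%).

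The shares of cells above 50 had overlapping intervals for all 10 genes. Ccnd1 was above 50 in 15 of 27 cells with Eomes (35.3% to 74.5%) and 21 of 28 without (55.1% to 89.3%). Ccnd3 was above 50 in 14 of 27 (31.95% to 71.3%) and 21 of 28 (55.1% to 89.3%), and Cdk2 in 8 of 27 (13.8% to 50.2%) and 15 of 28 (33.9% to 72.5%). Cdkn1c was above 50 in 5 of 27 (6.30% to 38.1%) and 1 of 28 (0.0904% to 18.3%). Cdkn2c was above 50 in 23 of 27 (66.3% to 95.8%) and 20 of 28 (51.3% to 86.8%), although its mean difference was -0.58, the medians being 274 and 789. Cdkn1b was above 50 in 23 of 27 (66.3% to 95.8%) and 26 of 28 (76.5% to 99.1%). With the lower floor set by the TrpnX control probe sets, Ccnd3 (-1.25) and Cdk2 (-1.37) passed the rule.

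Cdkn1c was above 50 in 12 of the 66 VZ/SVZ cells. Of these 12 cells, 6 were Tubb3-only, 5 had both Mki67 and Tubb3, and 1 was Mki67-only. All 5 cells with both genes also had Eomes above 50, with Eomes signals between 541 and 3812. Their Cdkn1c signals were 411, 361, 340, 291 and 122, against 288 to 998 in the 6 Tubb3-only cells, so the ranges overlapped.

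The cells with Cdkn1c differed in what else they carried. Cdk4 was above 50 in 12 of the 12, Cdkn1b in 10, Cdkn2d in 8, Ccnd2 and Cdk6 in 7 each, Cdkn2c in 5, Ccnd3 in 3 and Ccnd1 in 2. Cdk2 was above 50 in 0 of 12 (interval to 26.5%). It was also rare in the classes that hold most of these cells, above 50 in 1 of 10 Tubb3-only cells and 8 of 25 cells with both genes. The cell with a Cdkn1c signal of 411 also had the highest Mki67 (5392) and Tubb3 (5653) signals of the VZ/SVZ cells and was the only one with interneuron markers above 50, Gad1 at 1045, Gad2 at 456 and Dlx2 at 1043. Its Ccnd2 signal was 10.1, whereas the other 4 cells with Cdkn1c, Mki67 and Tubb3 had between 528 and 2765. Without it, Cdkn1c was above 50 in 11 of 65 VZ/SVZ cells, 4 of them with both Mki67 and Tubb3. In the Eomes comparison Ccnd2 then differed by -0.44, and still 0 of the 10 genes passed the rule. Whether this array held RNA of a single cell was not tested.

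In the cortical plate nearly all of the 10 genes were at or below 50. Only Cdk4 was above 50 in all 3 CP cells, and Cdkn2d was above it in 1. By the rule of size 8 genes were lower in CP than in VZ/SVZ cells and none was higher. Over all genes 13% were lower and 5.49% higher, and among the 7618 more widely seen genes 31% were lower and 8.78% higher. The median difference was -1.72 for the 10 genes and -0.57 for those 7618 genes.

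Cdk4 had signals of 1464, 768 and 1135 in the 3 CP cells, against a lowest of 230, a median of 2648 and a highest of 4811 in the 66 VZ/SVZ cells. The CP cells lay in the lower part of the VZ/SVZ range, with means of 10.08 ± 0.47 and 11.32 ± 0.67 (SD) and a difference of -1.24. The mean signal after trimming 2% at either end was also lower in CP cells, at 50.1 to 76.1 against 59.2 to 142. With the cells brought to the same trimmed mean the difference was -0.58, with quantile normalization -0.64, and without the CP cell at 768 it was -0.99, so Cdk4 did not pass the rule under these 3 settings.

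Ccnd2 had signals of 4.03, 3.56 and 1.51 in the CP cells, and was above 50 in 56 of 66 VZ/SVZ cells (73.9% to 92.5%) with a median of 2171. It was at least 24.9-fold lower in CP. Cdk6, at 16.02, 1.06 and 4.85 in CP, was above 50 in 56 of 66 VZ/SVZ cells with a median of 1862, and was at least 20.0-fold lower in CP. Both genes overlapped with the 10 VZ/SVZ cells at or below 50.

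Ccnd1 was at least 4.68-fold lower in CP, Ccnd3 at least 2.87-fold, Cdkn1b at least 3.51-fold and Cdkn2c at least 5.06-fold, all 4 being above 50 in 0 of 3 CP cells (interval to 70.8%). Cdkn1b came closest to the cut, at 42.5 in 1 CP cell. Cdkn2d had 509, 2.56 and 1.07 in CP and a difference of -1.63. Cdk2 (-0.90) and Cdkn1c (-0.51) stayed under the rule, both at or below 50 in the 3 CP cells. Of the 28 other G1/S genes, 13 were lower and 0 higher in CP, with Ccna2 at least 21.8-fold lower, Rbl1 at least 6.93-fold lower and Cks1b different by -4.22.

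CP cells and Tubb3-only cells of the VZ/SVZ both carried Cdk4 and little of the D-type cyclins or Cdk6. Set against the 10 Tubb3-only cells of the VZ/SVZ, the CP cells were lower by the rule in 1 gene, Cdkn1c (-2.08), and higher in none, where 9.65% of all genes (22.1% of the 7618) were lower and 4.69% (7.94%) higher. Cdkn1c was above 50 in 0 of 3 CP cells (interval to 70.8%) and in 6 of 10 Tubb3-only cells (26.2% to 87.8%), so the intervals overlapped and 3 cells could not show a lower share. Cdk4 differed by -0.94, Cdkn1b by -0.83, Ccnd2 by -0.80 and Cdkn2d by 0.53. Ccnd1 was at or below 50 in all 13 cells.

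**Figure D4:**
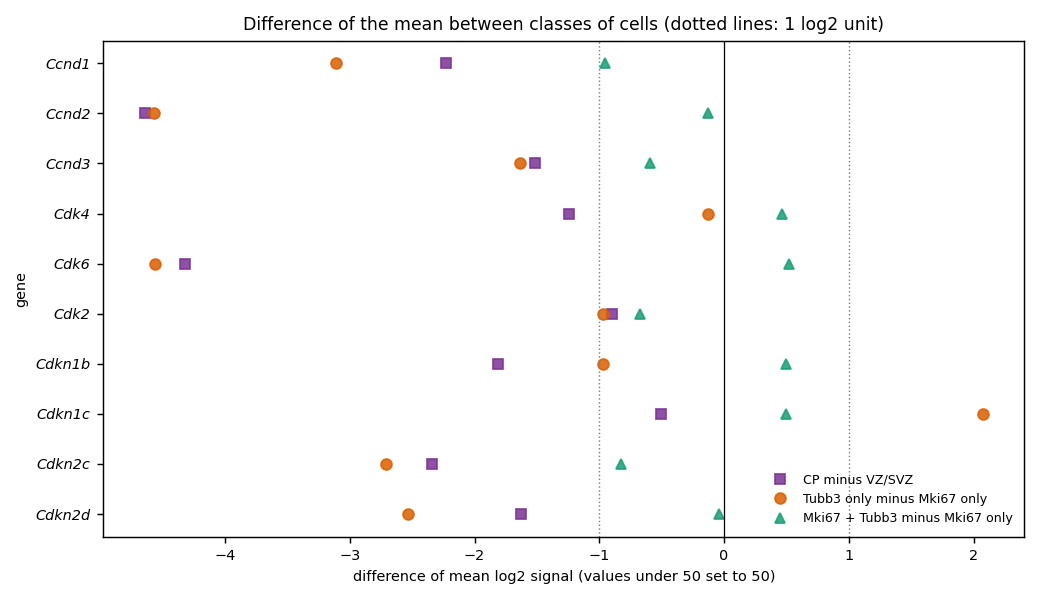
Difference of the mean log2 signal (horizontal axis, values under 50 set to 50) for each gene in CP minus VZ/SVZ cells, Tubb3-only minus Mki67-only cells, and cells with both Mki67 and Tubb3 minus Mki67-only cells. The last set lies between the dotted lines at 1 log2 unit for all 10 genes, Cdkn1c stands at 2.07 for Tubb3-only minus Mki67-only, and the CP and Tubb3-only values of Cdk4 are -1.24 and -0.13.

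By title letter, the 3 CP cells all carried E and the VZ/SVZ cells D (7), C (7), B (14), A (7) or X (31). Cells of letter D, all of them Tubb3-only, had Ccnd1, Ccnd3, Cdk6 and Cdkn2c above 50 in 0 of 7 (interval to 40.96%). Letter C, with 6 cells of both Mki67 and Tubb3 and the 1 cell of neither, had Ccnd1 above 50 in 1 of 7 (0.361% to 57.9%), at 164, whereas Ccnd2, Cdk4, Cdk6 and Cdkn2d were above 50 in 7 of 7 (59.04% to 100%). Ccnd1 was above 50 in 9 of 14 cells of letter B, 5 of 7 of letter A and 21 of 31 of letter X. In 6 of the 7 cells of letter C, Ccnd2 was thus above 50 and Ccnd1 was not.

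The inhibitors also varied by letter. Cdkn1c was above 50 in 4 of 7 cells of letter D, 3 of 7 of letter C, 0 of 14 of letter B (interval to 23.2%), 0 of 7 of letter A (interval to 40.96%) and 5 of 31 of letter X. Cdkn2c had a median of 1490.5 in letter A, against 264 in letter B, although 6 of 7 and 12 of 14 cells were above 50. Cdkn2d had a median of 1061 in letter C, 723 in letter B and 443 in letter A. Its mean log2 signal was 9.64, 8.58 and 8.65 in that order, so letters A and B did not keep the order of the medians. Letters also differ in their make-up by class, and no class other than Tubb3-only holds a cell of letter D. Within the cells with both Mki67 and Tubb3, Ccnd1 was above 50 in 1 of 6 cells of letter C (0.421% to 64.1%), 4 of 8 of letter B, 3 of 3 of letter A and 5 of 8 of letter X. In the same class Cdkn1c was above 50 in 3 of 6 cells of letter C (11.8% to 88.2%), 0 of 8 of letter B, 0 of 3 of letter A and 2 of 8 of letter X. The intervals of these shares overlapped.

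**Figure D5:**
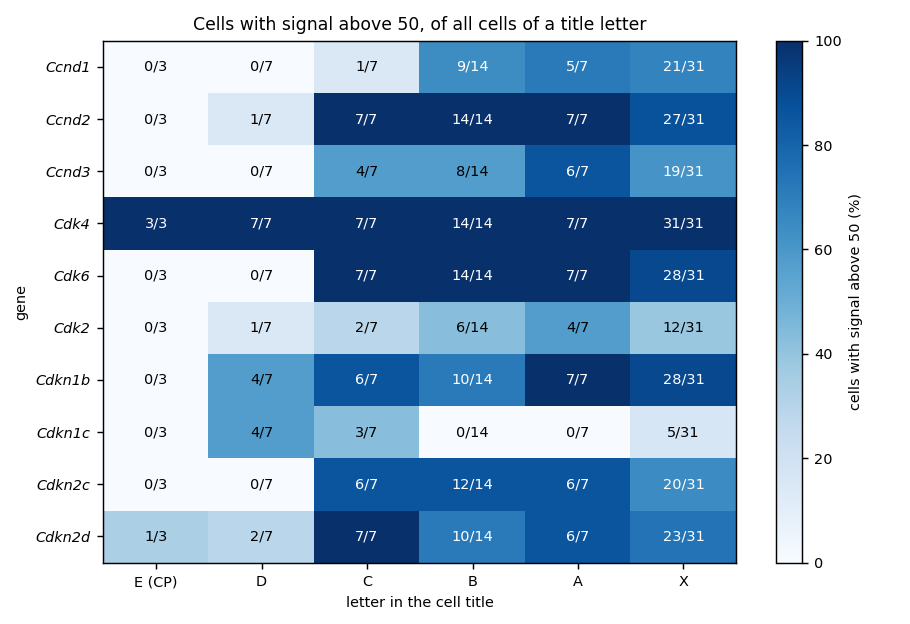
Number of cells with signal above 50 out of all cells of a title letter (text in each field) and the same as a percentage (colour), for each gene (rows) and letter (columns); E holds the 3 CP cells. Cdk4 is above 50 in all cells of each letter, Ccnd1 in 1 of 7 cells of letter C, and Cdkn1c in none of letters A and B.

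Cyclins and inhibitors were mostly above 50 in the same cells, near what the share of each alone gives. Of the 66 VZ/SVZ cells, 8 had no D-type cyclin above 50 and 3 had no inhibitor above 50. In 57 cells at least 1 D-type cyclin and at least 1 of the 4 inhibitors were above 50. These were 3 of 10 Tubb3-only cells, 24 of 25 cells with Mki67 and Tubb3 and 29 of 30 Mki67-only cells, with the 1 cell of neither gene. The median number of the 10 genes above 50 was 1 in CP cells, 3 in Tubb3-only cells, 7 in cells with both genes and 8 in Mki67-only cells. No D-type cyclin was above 50 in 3 of 3 CP cells, 7 of 10 Tubb3-only cells, 1 of 25 cells with both genes and 0 of 30 Mki67-only cells.

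D-type cyclins overlapped unevenly. Ccnd1 with Ccnd2 was found in 35 VZ/SVZ cells, Ccnd2 without Ccnd1 in 21 and Ccnd1 without Ccnd2 in 1. All 36 cells with Ccnd1 were among the 55 cells with Mki67 above 50, of which 53 had Ccnd2 above 50 (96.4%), so the overlap was near what the share of Ccnd2 alone gives. All 3 D-type cyclins were above 50 in 8 of 25 cells with Mki67 and Tubb3 and in 15 of 30 Mki67-only cells. Both INK4 inhibitors were above 50 in 0 of 10 Tubb3-only cells (interval to 30.8%), 17 of 25 cells with both genes and 20 of 30 Mki67-only cells.

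Within the 55 cells with Mki67 above 50, the signals of the genes were only loosely related. Pearson's r over these cells, which share the amplification method and the array type, ran from -0.43 for Ccnd2 with Cdkn1c to 0.33 for Cdkn2c with Cdkn2d. It was 0.31 for Ccnd2 with Cdk6 and 0.31 for Ccnd3 with Cdk2. Only 6 of the 55 cells had Cdkn1c above 50. Without the cell that carried interneuron markers, a setting chosen after seeing the data, r for Ccnd2 with Cdkn1c was -0.18 over 54 cells, and the range then ran from -0.33 for Cdk4 with Cdk2 to 0.35 for Ccnd2 with Cdk6. The Pearson value of -0.43 thus rested largely on 1 cell. Spearman's rank correlation of this pair moved less, from -0.30 with that cell to -0.23 without it. These values describe the cells at hand.

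The genes with the most similar pattern over the 66 VZ/SVZ cells were sought among the 7618 more widely seen genes. These r values run over cells of all classes and so mix differences between classes with those inside them. For Cdk6 the nearest were Hmgb2 (0.75), Mki67 (0.74) and Cks2 (0.70), a chromatin protein, the proliferation marker and a CDK-binding protein. For Ccnd2 they were Cdca7 (0.71), Marcks (0.70) and Cdk6 (0.68). For Cdkn2d they were the condensin subunit Smc2 (0.64), the spindle midzone protein Prc1 (0.62) and the spindle protein Nusap1 (0.59). For Cdkn2c they were the kinetochore protein Ndc80 (0.60), Mid1ip1 (0.60) and AU020206 (0.57).

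The nearest genes of Cdkn1c were the signalling ligand Wnt7b (0.67), the neuronal protein Stmn2 (0.65) and the adhesion molecule L1cam (0.65). For Ccnd1 they were Efhd2 (0.61), Plpp3 (0.58) and Gas1 (0.57), and for Cdk4 Atp5l (0.58), Ankrd11 (0.55) and Celsr1 (0.54). For Cdkn1b they were Hmgn1 (0.56), Rps29 (0.54) and Sh3bgrl (0.53). Ccnd3 and Cdk2 had looser neighbours, with Suclg2 (0.46), Nr2f1 (0.46) and Galnt1 (0.45) for Ccnd3 and Ybx2 (0.47), Zfp263 (0.44) and Zfyve21 (0.44) for Cdk2.

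The genes were read by 26 probe sets in all, and probe sets of 1 gene did not see the same cells. Cdk4 was above 50 in all 66 VZ/SVZ cells with each of its 3 probe sets. Of 3 Ccnd1 probe sets, the best was above 50 in 36 VZ/SVZ cells and the others in 34 and 13. The 7 Ccnd2 probe sets ranged from 2 to 56 cells, and the 3 of Cdk6 stood at 56, 37 and 0. Both extra probe sets of Ccnd3 and the second of Cdk2 were above 50 in 0 of 66 cells, and the second of Cdkn1b in 1. A gene at or below 50 in a cell is therefore a statement on its best probe set.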

How the data were processed

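The deposited table holds linear probe set intensity values of 45101 probe sets in 69 cells, which the authors computed with MAS5 (version unstated), per the submitters' processing notes. How the authors scaled the arrays is not given in the sources at hand, and detection calls were not used. Names came from the platform annotation (34958 with 1 gene, 932 with several, 9211 with none). Each of 18194 genes was read from the probe set of 1 gene whose mean log2 signal across the 69 cells was highest. Values under 50 were set to 50 before log2. The cut of 50 was passed by 18.0% of values and by 0 of 207 values of the TrpnX control probe sets. The 10 genes, the lists, the cut and the comparisons were chosen with earlier results of these data known. Fixed rules named all 10 genes, the 3 class genes, the 5 and 3 other G1/S genes with the largest differences (Tubb3-only against Mki67-only, and CP against VZ/SVZ), and 3 neighbours per gene by Pearson's r. Shares have Clopper-Pearson 95% intervals. No p-value was computed, because cells of 1 sample are not replicates. No doublet caller was run. The number of arrays limits the precision. Of 28 other G1/S genes all 28 were measured, and of the proliferation list 13. The differences were tested on resampled values of the VZ/SVZ cells, with a known change put into genes often above 50. Genes mostly at the floor were thus not covered. The neighbour search was tested by adding a noisy copy of a measured gene. Gene starts and upstream sequences are from RefSeq (GRCm38.p6). Other floors, scalings, probe set rules, cuts, class genes and sets of cells were tried. Python 3.11.15, numpy 2.4.6, pandas 2.3.3, scipy 1.17.1 and matplotlib 3.10.9 were used.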

Additional observations from a re-analysis of the deposited data

Results flagged for a closer look

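Of 40 combinations of a gene and a group of 7 or 10 cells, 10 had a cell that stood apart from the others of its group by Dixon's criterion. Chance flags about 1 in 20 groups, and many of these groups had all other cells at the floor of 50, so that any cell above it stood apart. Values are log2 signals. Among Tubb3-only cells the highest cell stood apart for Cdkn2c (9.67), Cdkn1b (9.36), Ccnd3 (9.25), Cdk2 (8.65) and Cdk6 (8.43), and for all of these but Cdkn1b it was the only cell above 50. In letter D the highest cell stood apart for Ccnd2 (8.75) and for Cdk2 (8.65), the same cell as in the Tubb3-only group for Cdk2. In letter C the only cell with Ccnd1 (7.36) and the lowest cell for Cdkn2c (5.64, the floor) stood apart, and in letter A the lowest cell for Cdk6 (8.31).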

How the results depend on the processing

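Among 150 alternative values of the 10 genes for Tubb3-only against Mki67-only cells, all 105 of genes past the rule kept their sign, 2 of them (both for Ccnd3) falling under 1. The fall with the mean over all Ccnd3 probe sets was fixed in advance by probe sets at or below 50 in all cells. The number of lower genes ran from 5 to 8 (6 as reported) and that of higher genes was 1 throughout. For CP against VZ/SVZ, 126 of 128 such values kept their sign and 14 fell under 1. Against Tubb3-only cells alone, 1 gene was lower in CP in place of 8, Cdkn2d turned to 0.53 and Ccnd1 stood at 0; the comparison cells themselves changed. Leaving out each CP cell in turn gave 7 to 8 lower genes. In the Eomes comparison, with 0 genes past the rule as reported, 2 were lower with the TrpnX floor (6.26) and 2 with log2(signal + 1), where low signals weigh more, 1 with a cut of 25 (Cdk2), 1 within letter X (Ccnd2, -1.36) and 1 without letter X (Cdkn2c, -1.32). There, 2 were higher over all VZ/SVZ cells (Cdk6, 1.53, and Cdkn2d, 1.131), which brings in Tubb3-only cells, and 1 (Cdkn2d, 1.02) in cells at or below the median number of genes above 50. The last setting, the one without the 8 cells with an interneuron or pericyte and meningeal marker above 50 and the one without the 1 with interneuron markers were chosen after seeing the data, and the ones without marked cells never changed a count of genes by over 1.5 times. D-type cyclin and inhibitor together were above 50 in 59 cells at a cut of 25 and 55 at 100. No paired analysis was possible because the labels pair no cells and no test was made.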
